A study of Homo sapiens with 18 samples.

Results

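The subject is a set of 10 genes of the NF-kB system: the 5 subunit genes NFKB1, NFKB2, REL, RELA and RELB, the IkB genes NFKBIA, NFKBIE, NFKBIZ and BCL3, and the deubiquitinase gene TNFAIP3. They were chosen by name, with earlier results of these data known. Their levels were followed over every group of a study of EWS-FLI1, the fusion transcription factor of Ewing sarcoma, in U2OS osteosarcoma cells. The table held 35579 genes, of which 16786 passed the filter on low counts, and all 10 NF-kB genes were among them. Of the 10, NFKB1, RELA, REL, NFKBIA and NFKBIE were set against NFKB2 and RELB as the canonical and the noncanonical arm.

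The study sequenced polyA RNA of 6 groups with 3 libraries each. Every line carried an integrated mCherry construct. Untreated cells expressed mCherry-EWS(YS37)-FLI1, mCherry-EWS-FLI1mut, mCherry-EWS-FLI1 or mCherry alone, and further mCherry-EWS-FLI1 cells received 7.5 µM LY2835219, the CDK4/6 inhibitor abemaciclib, for 6 h or 24 h. The labels state neither the changes in EWS-FLI1mut and EWS(YS37)-FLI1, nor a vehicle for untreated cells, nor whether a line was a clone or a pool. The treatment times of 6 h and 24 h are those of the sample titles. The treatment protocol of the labels gives 0, 3 and 6 h, so that 6 h stands in both and 24 h has no counterpart there, and the times below are to be read with that doubt. The labels also name 2 library preparation kits without assigning libraries to them, so a kit difference cannot be told apart from the groups. The labels call the libraries biological replicates, with 1 line per construct, so the p-values cover the spread between libraries and not that between lines.

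NF-kB proteins bind DNA as dimers of REL-family subunits, and IkB proteins hold many of these dimers in the cytoplasm. In the canonical pathway, receptors for TNF, interleukin-1 or microbial products activate the IKK complex, which marks the IkB proteins for destruction and frees dimers of RELA or REL with the product of NFKB1. In the noncanonical pathway, receptors such as LTBR and CD40 stabilise the kinase encoded by MAP3K14, and the NFKB2 precursor is processed into the partner of RELB. RELB lies at chr19:45001430-45038198 on the plus strand, NFKB2 at chr10:102394110-102402529 (plus), NFKB1 at chr4:102501329-102617302 (plus) and RELA at chr11:65653596-65663094 (minus) in GENCODE 29 on hg38. Several members are themselves textbook NF-kB target genes: NFKBIA and TNFAIP3 are known for negative feedback, and NFKB2 and RELB for coupling the canonical to the noncanonical arm.

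The promoter sequences of the members are shown first, and their part in the levels below was not tested. RefSeq promoter windows on GRCh38.p14, which run from 250 bases before a gene's start to 50 bases after it, were found for 8 of the 10 genes. NFKBIE and RELB were not matched. The windows were searched on both strands for the kB consensus, a degenerate motif of 10 letters bound by NF-kB dimers. It occurred in 9 of 13 windows and in 7 of 8 matched genes. Of all 35116 windows, 11.3% held it, and of all 27305 genes with a window, 13.25% did. Below, sequences run 5′ to 3′ on the strand of the gene, and capitals mark bases covered by a match on either strand. Positions count from the start, so that base -1 lies just before it. TNFAIP3, REL and BCL3 are given only as a site of 30 bases, because these bases lie in or at a GENCODE 29 exon. NFKB2 is given at start 3 of its RefSeq windows and RELA at start 2.

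NFKBIA, chr14:35404750-35404879, minus strand, base -130 to -1: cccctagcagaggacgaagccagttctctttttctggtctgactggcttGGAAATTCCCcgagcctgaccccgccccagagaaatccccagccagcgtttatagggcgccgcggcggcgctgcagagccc
TNFAIP3, chr6:137867188-137867217, plus strand, base -71 to -42: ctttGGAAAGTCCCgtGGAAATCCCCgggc
NFKB1, chr4:102501229-102501328, plus strand, base -130 to -31: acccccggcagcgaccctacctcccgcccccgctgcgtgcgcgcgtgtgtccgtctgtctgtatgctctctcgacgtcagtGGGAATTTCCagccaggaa
NFKB2, chr10:102395575-102395693, plus strand, base -130 to -12: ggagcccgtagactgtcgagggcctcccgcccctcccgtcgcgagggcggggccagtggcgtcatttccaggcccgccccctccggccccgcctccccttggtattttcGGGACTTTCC
REL, chr2:60881517-60881546, plus strand, base -57 to -28: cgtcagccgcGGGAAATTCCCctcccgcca
NFKBIZ, chr3:101827740-101827869, plus strand, base -250 to -121: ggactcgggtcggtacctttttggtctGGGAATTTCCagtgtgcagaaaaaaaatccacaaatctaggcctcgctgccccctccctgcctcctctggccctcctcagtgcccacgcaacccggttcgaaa
BCL3, chr19:44748700-44748729, plus strand, base -8 to 22: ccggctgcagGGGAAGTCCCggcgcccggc
RELA, chr11:65663095-65663166, minus strand, base -250 to -179: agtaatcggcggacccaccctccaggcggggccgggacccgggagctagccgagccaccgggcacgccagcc

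The 30 TNFAIP3 bases hold 2 matches that do not overlap each other. In REL, matches on both strands overlap and together cover 11 bases. Neither of the 2 RELA windows held a match, and the stretch printed for RELA is shown as the member without one. A pair of ETS-type motifs was searched in the same way, since FLI1 is an ETS factor whose fusion is known to bind GGAA repeats. The letters GGAAGGAA occurred in 3.67% of all windows and in 1 member window, at the first NFKB2 start. The letters CCGGAAGT occurred in 4.14% of all windows and in none of the 13 member windows. A match is a description of letters and does not show that a factor binds there.

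The libraries held 16261034 to 20270637 estimated counts each. FLI1, whose sequence is part of the constructs, averaged 1019 ± 44.0 CPM in EWS(YS37)-FLI1 cells, 642 ± 19.9 CPM in EWS-FLI1mut cells and 247 ± 16.3 CPM in untreated EWS-FLI1 cells, against 0.547 ± 0.563 CPM in mCherry cells (SD, n = 3 libraries each). CPM are counts relative to library size after TMM scaling. In treated EWS-FLI1 cells FLI1 averaged 406 ± 21.8 CPM at 6 h and 236 ± 10.4 CPM at 24 h. The constructs therefore differed in FLI1 level, and its part in the differences between lines was not tested. Of 9 osteoblast markers, 6 or 7 had at least 10 counts in each library of a group, and IBSP was listed at 0 in all libraries of 4 groups. Their summed level was 1957 to 2210 TPM in EWS(YS37)-FLI1 cells, 2335 to 2654 TPM in EWS-FLI1mut cells and 3466 to 3716 TPM in untreated EWS-FLI1 cells, against 2765 to 2827 TPM in mCherry cells. Of 9 blood cell markers 1 to 3 did, their summed level was 2.36 to 7.67 TPM over all libraries, and CD3E was listed at 0 in every library. The 8 endothelial markers summed to 6.68 to 16.9 TPM. The 7 epithelial markers summed to 391 to 419 TPM at 24 h, against 802 to 850 TPM in untreated EWS-FLI1 cells and 494 to 543 TPM in mCherry cells, and the part of these marker levels in the results was not tested.

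Levels per transcript length, in TPM, placed RELA highest and REL lowest or next to lowest in every group. The place of REL depends on how reads were divided, since it shares 45.9% of its stretches of 31 bases with other genes. TPM relates reads to transcript length and library size. In mCherry cells RELA averaged 93.5 ± 9.80 TPM. NFKBIA followed with 31.5 ± 3.61 TPM, NFKB2 with 21.4 ± 0.878 TPM and BCL3 with 20.3 ± 2.20 TPM. NFKB2 and BCL3 overlapped between libraries. NFKB1, NFKBIZ and NFKBIE lay between 10.0 and 12.1 TPM on average and overlapped with each other in the order, below every BCL3 library and above every RELB library. RELB (5.76 ± 1.15 TPM), REL (5.23 ± 0.398 TPM) and TNFAIP3 (4.95 ± 2.15 TPM) formed the low end, again with overlap. At 6 h of LY2835219 the order was different: RELA averaged 161 ± 21.8 TPM, NFKBIA 119 ± 8.84 TPM, NFKBIE 77.1 ± 5.05 TPM, NFKB2 70.9 ± 3.86 TPM and RELB 66.0 ± 0.900 TPM, and BCL3 was ninth with 22.1 ± 2.99 TPM.

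**Figure D1:**
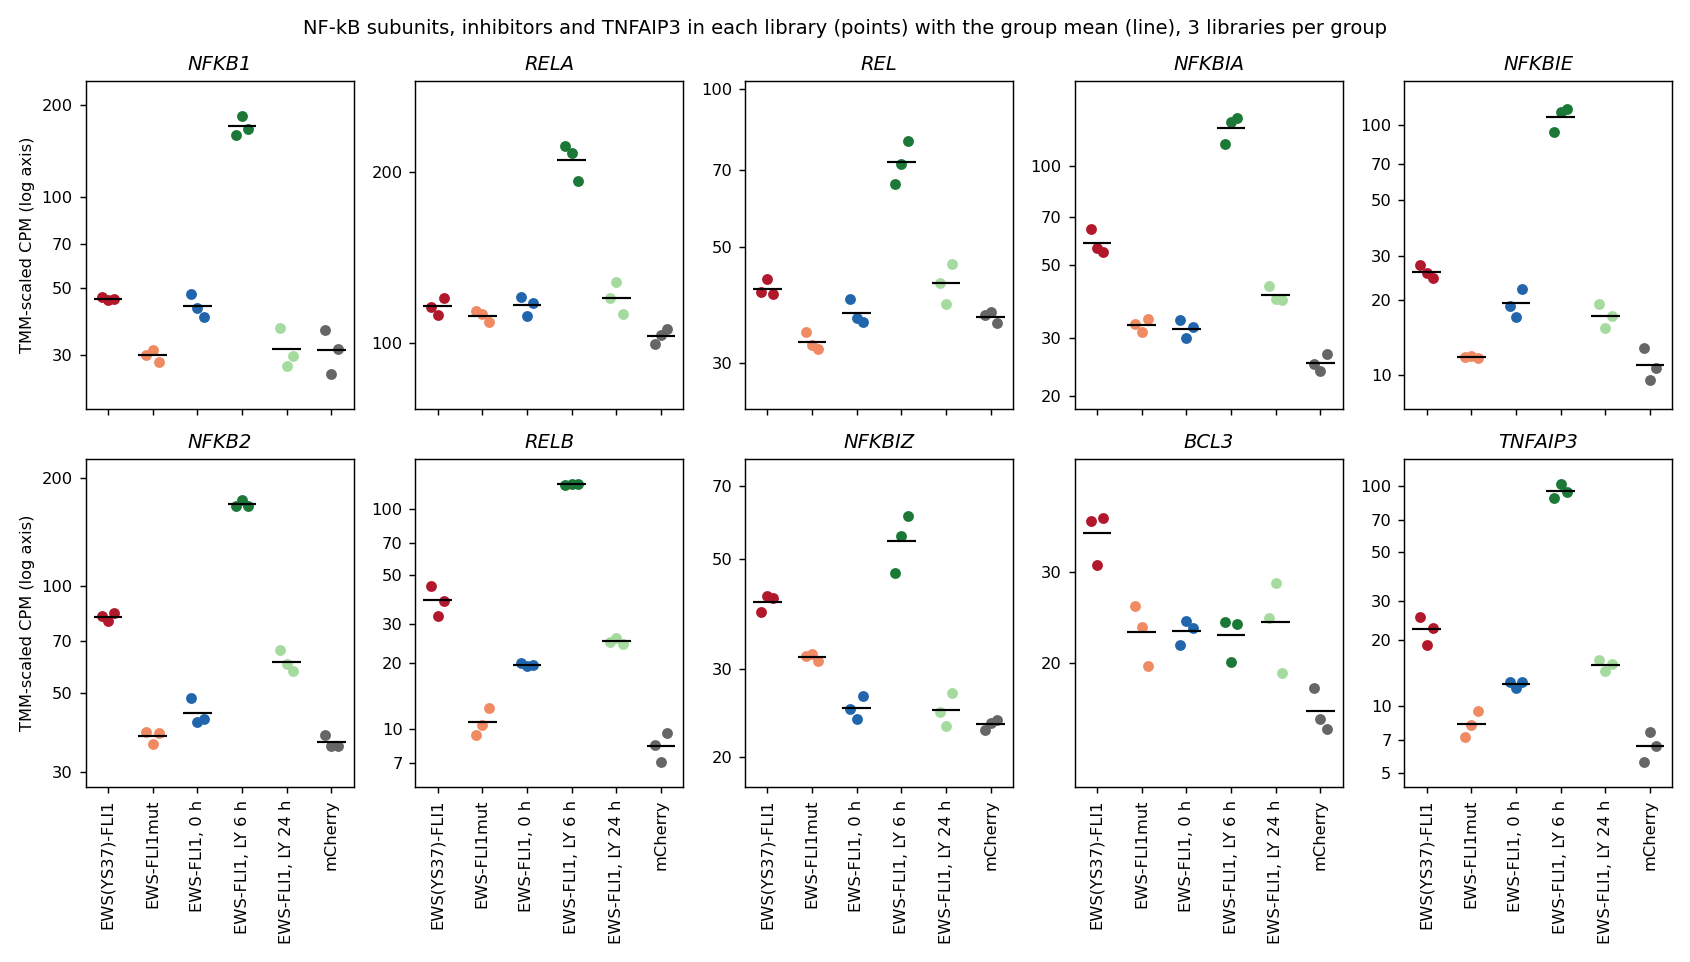
TMM-scaled CPM (log axis) of each of the 10 genes, with 1 point per library, the group mean as a line and the 6 groups along the horizontal axis. In 9 of the 10 genes the 3 libraries at 6 h of LY2835219 lie above those of untreated EWS-FLI1 cells. BCL3 is the exception. Such a separation was not counted over all genes tested, of which 64.9% were called at 6 h.

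EWS-FLI1 cells held more RNA of 8 of the 10 NF-kB genes than mCherry cells, led by the noncanonical subunit RELB. Of all genes tested, 21.1% were called in either direction and 11.1% as higher. The 10 genes had a median log2 fold change of 0.41, beside -0.02 over all genes tested. RELB, which pairs with the NFKB2 product, had 19.9, 19.4 and 19.6 CPM in EWS-FLI1 cells, against 8.43, 7.07 and 9.61 CPM in mCherry cells. The libraries of the groups did not overlap, and RELB was 2.33-fold higher (log2 fold change 1.22 ± 0.12, SE; edgeR quasi-likelihood test with Benjamini-Hochberg adjustment, adjusted p = 1.19e-07). In these bulk libraries a higher level in every cell and a larger share of expressing cells cannot be told apart.

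The feedback genes came next. TNFAIP3, whose product removes ubiquitin from signalling proteins upstream of IKK, had 12.8, 12.1 and 12.9 CPM in EWS-FLI1 cells, against 5.59, 7.61 and 6.56 CPM in mCherry cells. Its log2 fold change was 0.94 ± 0.13 (edgeR adjusted p = 1.14e-05). With offsets for transcript length it was 0.37 and no longer called (edgeR adjusted p = 0.52). The TNFAIP3 call was also lost with limma on TPM (limma adjusted p up to 0.54). Transcript assignment of TNFAIP3 was noisy, with 4.14, 5.98 and 8.93 TPM in the same EWS-FLI1 libraries. NFKBIE, an IkB protein that holds RELA and REL dimers, had 18.9, 17.0 and 22.2 CPM in EWS-FLI1 cells, against 12.8, 9.50 and 10.6 CPM in mCherry cells. NFKBIE rose by 0.81 ± 0.12 on the log2 scale (edgeR adjusted p = 2.82e-05) and without overlap of the groups, and with length offsets by 0.49 (edgeR adjusted p = 0.0377). BCL3, a nuclear IkB protein that binds dimers of the NFKB1 and NFKB2 products, rose by 0.52 ± 0.13 (edgeR adjusted p = 0.00632).

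The remaining calls in EWS-FLI1 cells were small. NFKB1, the gene of the canonical precursor, had 47.8, 43.0 and 40.0 CPM, against 36.4, 26.0 and 31.5 CPM in mCherry cells (log2 fold change 0.48 ± 0.11, edgeR adjusted p = 0.00201). NFKBIA, the main feedback IkB gene, had 33.9, 29.9 and 32.3 CPM in EWS-FLI1 cells, against 24.9, 23.7 and 26.7 CPM in mCherry cells (0.35 ± 0.09, edgeR adjusted p = 0.00485). The noncanonical precursor gene NFKB2 had 48.3, 41.4 and 42.3 CPM in EWS-FLI1 cells, against 38.3, 35.5 and 35.7 CPM in mCherry cells (0.27 ± 0.07, edgeR adjusted p = 0.00712). RELA changed least among the called genes, by 0.18 ± 0.06 (edgeR adjusted p = 0.0361). With length offsets and with limma on TPM the calls of NFKB2, RELA and NFKBIA were lost, and with limma on TPM that of NFKB1 as well (limma adjusted p up to 0.0562). The RELA call was also lost without EWS-FLI1 replicate 1 or 3 and without mCherry replicate 1 or 2, and the NFKB2 call without EWS-FLI1 replicate 1. REL (0.03 ± 0.08) and NFKBIZ (0.11 ± 0.09) were not called. With length offsets and with limma on TPM NFKBIZ was called. RELA and TNFAIP3 each overlap a gene on the other strand, and since the use of strand is not stated, reads of such pairs cannot be told apart.

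EWS-FLI1mut cells differed from mCherry cells in 3 of the 10 genes, beside 7.15% of all genes tested, or 3.53% as higher. All 3 are IkB genes. NFKBIZ, a nuclear IkB protein that acts as a coactivator at some NF-kB targets, had 31.8, 32.2 and 31.2 CPM in EWS-FLI1mut cells, against 22.6, 23.4 and 23.8 CPM in mCherry cells (log2 fold change 0.45 ± 0.09, edgeR adjusted p = 0.00229). NFKBIA rose by 0.39 ± 0.09 (edgeR adjusted p = 0.00682), with 33.0, 31.3 and 34.1 CPM in EWS-FLI1mut cells. BCL3 rose by 0.51 ± 0.13 (edgeR adjusted p = 0.0178). The BCL3 call was lost with length offsets. It was also lost when replicate 1 or 2 of EWS-FLI1mut, or replicate 2 or 3 of mCherry, was left out.

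RELB had 9.40, 10.4 and 12.4 CPM in EWS-FLI1mut cells and was not called against mCherry cells (0.35 ± 0.13, edgeR adjusted p = 0.0947), but it was called when no filter on low counts was used. TNFAIP3 was not called either (0.34 ± 0.13), and its sign turned with length offsets (-0.26). NFKB1 differed by -0.06 ± 0.11 and NFKB2 by 0.05 ± 0.07 on the log2 scale. NFKBIE (0.10 ± 0.12), RELA (0.12 ± 0.06) and REL (-0.16 ± 0.08) were not called.

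Set against EWS-FLI1 cells directly, EWS-FLI1mut cells had lower RELB, NFKBIE, TNFAIP3, NFKB1 and NFKB2 and higher NFKBIZ. That made 6 of 10 genes, 1 higher and 5 lower, beside 16.3% of all genes tested, 7.51% as higher and 8.78% as lower. RELB fell by 0.87 ± 0.11 on the log2 scale (edgeR adjusted p = 7.52e-06), NFKBIE fell by 0.71 ± 0.12 (edgeR adjusted p = 0.000134) and TNFAIP3 fell by 0.60 ± 0.12 (edgeR adjusted p = 0.00135, lost with length offsets). NFKB1 fell by 0.54 ± 0.10 (edgeR adjusted p = 0.000805), with 30.1, 31.3 and 28.5 CPM in EWS-FLI1mut cells, all below the EWS-FLI1 libraries. The calls of NFKB1 and TNFAIP3 were lost with limma on TPM. NFKB2 fell by 0.22 ± 0.07 (edgeR adjusted p = 0.0349). The NFKB2 call was lost in several alternatives, among them upper-quartile scaling and the removal of replicate 2 or 3 of EWS-FLI1mut. With EWS-FLI1 replicate 1 left out it was -0.14. NFKBIZ rose by 0.34 ± 0.09 (edgeR adjusted p = 0.00834), a call lost with length offsets, with limma on TPM and without EWS-FLI1 replicate 2. NFKBIA (0.04 ± 0.08) and BCL3 (-0.00 ± 0.13), which were higher than in mCherry cells in both lines, were not called between them, nor were REL (-0.19 ± 0.08) and RELA (-0.06 ± 0.06). Both comparisons with mCherry cells used the same mCherry libraries.

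EWS(YS37)-FLI1 cells had the highest mean CPM of 9 of the 10 NF-kB genes among untreated cells, all but RELA. Of the 10 genes, 9 were higher than in mCherry cells, beside 21.7% of all genes tested in either direction and 11.5% as higher. Their median log2 fold change was 1.16, beside -0.00 over all genes. RELB had 44.6, 32.8 and 38.1 CPM in EWS(YS37)-FLI1 cells, which was 4.58-fold higher than in mCherry cells (log2 fold change 2.19 ± 0.11, edgeR adjusted p = 2.63e-12). TNFAIP3 had 25.5, 19.0 and 22.5 CPM in EWS(YS37)-FLI1 cells and was 3.40-fold higher (1.76 ± 0.12, edgeR adjusted p = 3.39e-10). Each RELB and TNFAIP3 library of EWS(YS37)-FLI1 cells lay above each library of the other untreated lines.

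NFKBIA, NFKBIE, NFKB2 and BCL3 rose by similar amounts in EWS(YS37)-FLI1 cells against mCherry cells. NFKBIA had 64.2, 56.2 and 54.8 CPM in EWS(YS37)-FLI1 cells (log2 fold change 1.22 ± 0.08, edgeR adjusted p = 2.50e-10). NFKB2 had 82.1, 79.5 and 84.1 CPM in EWS(YS37)-FLI1 cells (1.17 ± 0.07, edgeR adjusted p = 1.98e-11). NFKBIE rose by 1.23 ± 0.12 and BCL3 by 1.15 ± 0.13, with 24.4 to 27.5 CPM and 31.1 to 38.3 CPM in EWS(YS37)-FLI1 cells. The canonical subunit genes changed less. NFKB1 had 46.8, 45.5 and 46.2 CPM in EWS(YS37)-FLI1 cells (0.56 ± 0.10, edgeR adjusted p = 0.00038), a call lost with limma on TPM. RELA had 116, 112 and 120 CPM in EWS(YS37)-FLI1 cells, against 99.7, 103 and 106 CPM in mCherry cells (0.18 ± 0.06, edgeR adjusted p = 0.0421). The RELA call was lost under 12 of 15 alternatives, including upper-quartile scaling, length offsets and each fit without an mCherry library. REL was not called (0.18 ± 0.08), and NFKBIZ rose by 0.82 ± 0.09.

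Against EWS-FLI1 cells, EWS(YS37)-FLI1 cells had 7 of the 10 genes higher and none called lower, beside 31.1% of all genes tested in either direction and 16.3% as higher. The 2 noncanonical members both rose, RELB by 0.97 ± 0.10 (edgeR adjusted p = 1.17e-07) and NFKB2 by 0.90 ± 0.07 (edgeR adjusted p = 5.94e-10). Of the 5 canonical members, the inhibitor genes NFKBIA (0.87 ± 0.08) and NFKBIE (0.42 ± 0.11) rose, and the subunit genes NFKB1 (0.08 ± 0.10), RELA (-0.01 ± 0.06) and REL (0.15 ± 0.08) were not called. The NFKBIE call was lost without EWS-FLI1 replicate 2, and with length offsets NFKBIE rose by 0.65. TNFAIP3 rose by 0.82 ± 0.11, a call lost with limma on TPM, NFKBIZ by 0.71 ± 0.09, or 0.45 with length offsets, and BCL3 by 0.63 ± 0.13. Against EWS-FLI1mut cells, 9 of the 10 genes were higher in EWS(YS37)-FLI1 cells, beside 27.2% of all genes in either direction and 14.5% as higher. RELB (1.84 ± 0.11), TNFAIP3 (1.42 ± 0.12), NFKBIE (1.13 ± 0.12) and NFKB2 (1.11 ± 0.07) rose most, followed by NFKBIA (0.83 ± 0.08), BCL3 (0.63 ± 0.13) and NFKB1 (0.62 ± 0.10). NFKBIZ rose by 0.37 ± 0.08 and REL by 0.34 ± 0.08. The NFKBIZ call was lost with length offsets and with limma on TPM, and the REL call with limma on TPM. RELA was not called (0.06 ± 0.06). EWS(YS37)-FLI1 cells also had the highest FLI1 level given above, and its part in these differences was not tested.

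**Figure D2:**
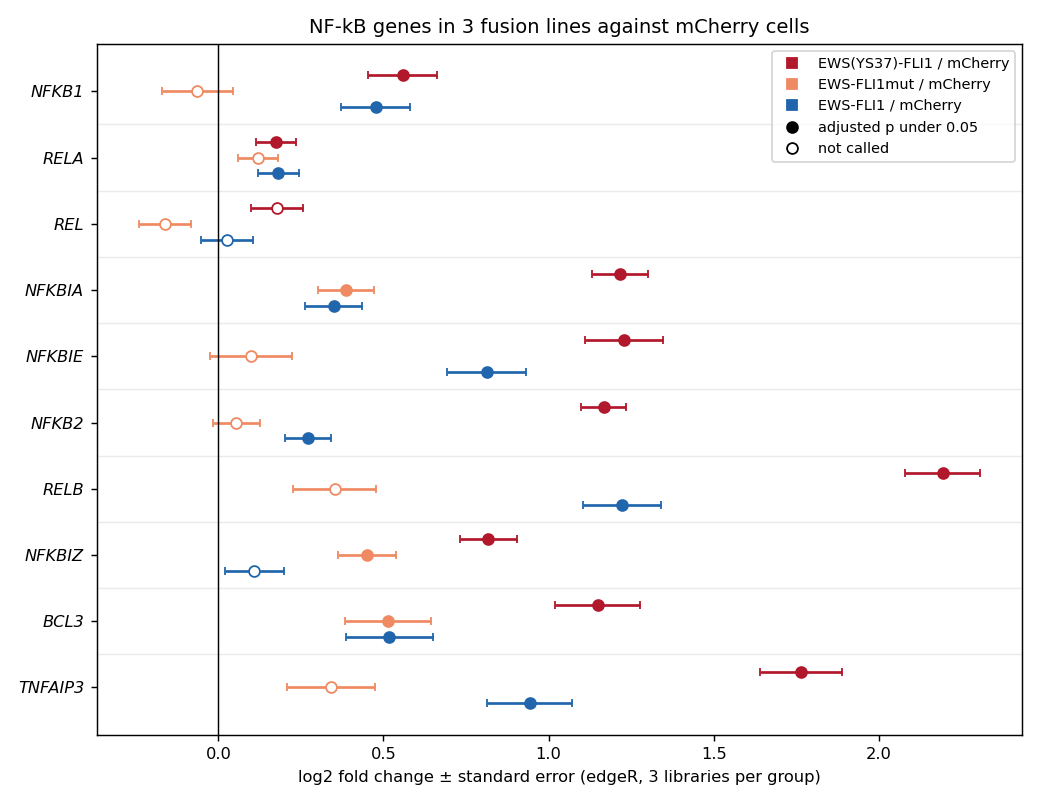
Log2 fold change against mCherry cells (horizontal axis) of the 10 genes (down the page) in EWS(YS37)-FLI1, EWS-FLI1mut and EWS-FLI1 cells, with SE as bars; filled points were called at an edgeR adjusted p under 0.05. RELB lies farthest to the right in EWS(YS37)-FLI1 cells at 2.19, and RELA lies between 0.12 and 0.18 in all 3 lines.

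In EWS-FLI1 cells 9 of the 10 genes rose after 6 h of LY2835219, and at 24 h every member was within 0.48 of the untreated level on the log2 scale, or within 0.56 with length offsets, where TNFAIP3 lay farthest. At 6 h, 64.9% of all genes tested were called, 31.6% as higher, so that a call alone was common; the 9 genes had log2 fold changes of 0.85 to 2.90. Calls that also moved by 1 or more on the log2 scale, in either direction, made up 23.2% of all genes tested, and 7 of the 10 NF-kB genes were among them. The median over the 10 genes was 1.95, beside -0.02 over all genes. With no scaling factors the median over all genes at 6 h was -0.27, and each of the 9 was still called as higher. The share of mitochondrial reads was 4.80 ± 0.277% in untreated EWS-FLI1 cells, 6.14 ± 0.146% at 6 h and 6.16 ± 0.380% at 24 h, and its part in the results was not tested.

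TNFAIP3 and RELB changed most. TNFAIP3 had 12.8, 12.1 and 12.9 CPM in untreated cells, 87.7, 102 and 94.1 CPM at 6 h and 16.1, 14.5 and 15.6 CPM at 24 h. At 6 h it was 7.49-fold higher than in untreated cells (log2 fold change 2.90 ± 0.11, edgeR adjusted p = 3.26e-16). RELB had 19.9, 19.4 and 19.6 CPM in untreated cells, 129, 130 and 130 CPM at 6 h and 24.8, 26.0 and 24.2 CPM at 24 h. At 6 h RELB was 6.59-fold higher (2.72 ± 0.10, edgeR adjusted p = 2.08e-16).

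The inhibitor genes and the precursor genes formed a middle group at 6 h. NFKBIE had 18.9, 17.0 and 22.2 CPM in untreated cells, 94.4, 113 and 116 CPM at 6 h and 19.2, 15.4 and 17.3 CPM at 24 h (6 h against untreated, 2.48 ± 0.11, edgeR adjusted p = 2.50e-15). NFKBIA had 33.9, 29.9 and 32.3 CPM in untreated cells, 117, 136 and 139 CPM at 6 h and 43.2, 39.3 and 39.1 CPM at 24 h (2.03 ± 0.08, edgeR adjusted p = 6.40e-16). The 2 precursor genes rose alike at 6 h. NFKB1 had 47.8, 43.0 and 40.0 CPM in untreated cells, 159, 185 and 167 CPM at 6 h and 36.9, 27.6 and 29.8 CPM at 24 h (1.96 ± 0.10 at 6 h, edgeR adjusted p = 4.26e-14). NFKB2 had 48.3, 41.4 and 42.3 CPM in untreated cells, 167, 174 and 168 CPM at 6 h and 66.0, 60.3 and 57.5 CPM at 24 h (1.95 ± 0.07 at 6 h, edgeR adjusted p = 5.36e-17).

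NFKBIZ, REL and RELA rose less at 6 h, by 1.12 ± 0.09, 0.95 ± 0.08 and 0.85 ± 0.06 on the log2 scale. With limma on log2(TPM + 1) they rose by 0.64, 0.40 and 0.50, beside a median of -0.26 over all genes in that fit. RELA had 121, 112 and 118 CPM in untreated cells, 223, 216 and 193 CPM at 6 h and 120, 128 and 112 CPM at 24 h. REL shares 45.9% of its stretches of 31 bases with other genes in GENCODE 29, most of them with an overlapping non-coding gene, so its count depends on how reads were divided. BCL3 had 21.6, 24.1 and 23.4 CPM in untreated cells, 24.0, 20.1 and 23.8 CPM at 6 h and 24.5, 28.6 and 19.1 CPM at 24 h. BCL3 did not pass the test at 6 h (-0.03 ± 0.13, edgeR adjusted p = 0.862). Limma on log2(TPM + 1) called it lower, in the fit with the median of -0.26 over all genes.

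By 24 h the precursor genes stood on opposite sides of the untreated level. Of all genes tested, 48.0% were called at 24 h, and 6 of the 10 NF-kB genes were, 5 as higher and 1 as lower, beside 23.3% and 24.6% of all genes. NFKB2 rose by 0.48 ± 0.07 (edgeR adjusted p = 3.21e-06), and NFKB1 fell by 0.47 ± 0.10 (edgeR adjusted p = 0.000641). The 24 h libraries of NFKB2 all lay above the untreated ones, and those of NFKB1 all lay below. NFKBIA rose by 0.34 ± 0.08 (edgeR adjusted p = 0.0015) and RELB by 0.35 ± 0.10 (edgeR adjusted p = 0.00815, but 0.0649 with length offsets). The RELB call was also lost with limma on TPM (limma adjusted p up to 0.21). The calls of TNFAIP3 (0.29 ± 0.12, edgeR adjusted p = 0.0452; 0.56 with length offsets) and REL (0.19 ± 0.08, edgeR adjusted p = 0.0479) were lost with length offsets, with the replicate block and on leaving out single libraries. For TNFAIP3 any of the 6 libraries did so. For REL these were replicates 2 and 3 of untreated EWS-FLI1 and replicates 1 and 3 of 24 h, the last giving 0.13. The TNFAIP3 and REL calls at 24 h were also lost with limma on TPM. RELA (0.04 ± 0.06), NFKBIE (-0.16 ± 0.11), NFKBIZ (-0.01 ± 0.09) and BCL3 (0.06 ± 0.13) were not called at 24 h.

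From 6 h to 24 h, 9 genes fell and BCL3 was not called (0.09 ± 0.13), beside 62.9% of all genes tested in either direction and 30.3% as lower. NFKBIE fell by 2.64 ± 0.11 on the log2 scale, TNFAIP3 by 2.62 ± 0.11 and RELB by 2.37 ± 0.10. NFKB1 fell by 2.44 ± 0.10, to a level 5.41-fold lower than at 6 h (edgeR adjusted p = 3.07e-15), and NFKB2 fell by 1.47 ± 0.07, to 2.77-fold lower (edgeR adjusted p = 7.90e-15). NFKBIA fell by 1.69 ± 0.08 and NFKBIZ by 1.13 ± 0.09. RELA (fell by 0.81 ± 0.06) and REL (fell by 0.76 ± 0.08) moved least among the called genes.

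**Figure D3:**
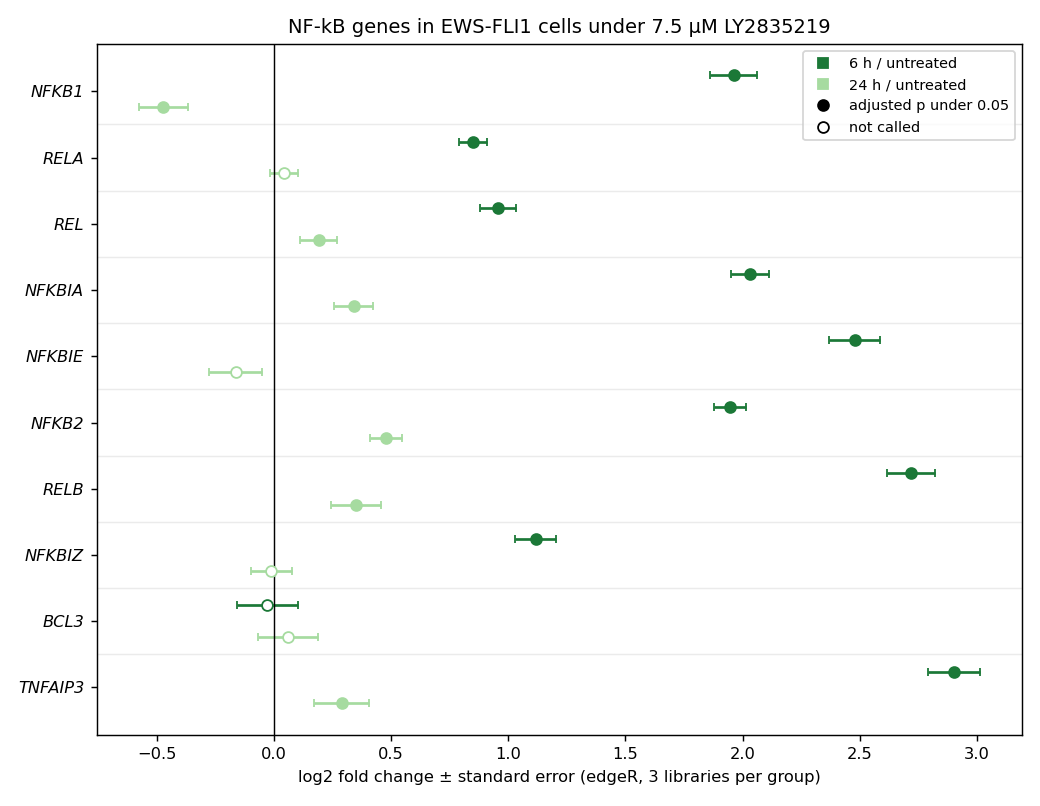
Log2 fold change against untreated EWS-FLI1 cells (horizontal axis) of the 10 genes (down the page) after 6 h and 24 h of 7.5 µM LY2835219, with SE as bars; filled points were called at an edgeR adjusted p under 0.05. At 6 h every gene but BCL3 lies between 0.85 and 2.90, and at 24 h all lie between -0.47 and 0.48.

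The balance of the arms was described by ratios of TPM within each library, without a test. The ratio of NFKB2 to NFKB1 had log2 values of 1.22, 1.42 and 1.21 in EWS(YS37)-FLI1 cells, 1.02, 0.68 and 1.04 in EWS-FLI1mut cells and 0.57, 0.46 and 0.52 in untreated EWS-FLI1 cells, against 0.58, 1.21 and 0.77 in mCherry cells. The EWS-FLI1 libraries were the lowest of the untreated lines, and mCherry replicate 2, which had the lowest NFKB1 level, lay level with the lowest EWS(YS37)-FLI1 libraries and above the other mCherry libraries. At 6 h of LY2835219 the log2 values were 0.47, 0.49 and 0.51, overlapping with untreated EWS-FLI1 cells, and at 24 h they were 1.18, 1.61 and 1.51, above every untreated EWS-FLI1 library. The mean corresponded to 1.43 NFKB2 transcripts per NFKB1 transcript in untreated EWS-FLI1 cells, 1.40 at 6 h and 2.70 at 24 h.

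RELB stayed below RELA in every library. The log2 ratio of RELB to RELA was -1.75, -2.04 and -2.18 in EWS(YS37)-FLI1 cells, -3.95, -3.99 and -3.53 in EWS-FLI1mut cells and -3.07, -2.83 and -3.33 in untreated EWS-FLI1 cells, against -3.66, -4.53 and -3.92 in mCherry cells. It reached -1.41, -1.39 and -1.03 at 6 h and was -2.88, -2.71 and -2.62 at 24 h. In ratios this was 0.118 RELB transcripts per RELA transcript in untreated EWS-FLI1 cells, 0.413 at 6 h and 0.150 at 24 h, and 0.252 in EWS(YS37)-FLI1 cells against 0.0610 in mCherry cells. The 24 h and untreated EWS-FLI1 libraries overlapped, and so did the EWS-FLI1mut and mCherry libraries. By arm, EWS(YS37)-FLI1 cells against mCherry cells had log2 fold changes of 1.17 and 2.19 in the 2 noncanonical members, and of 0.18 to 1.23 with a median of 0.56 in the 5 canonical members. At 6 h the noncanonical members had 1.95 and 2.72, and the canonical members 0.85 to 2.48 with a median of 1.96. The difference between the arms was not tested.

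**Figure D4:**
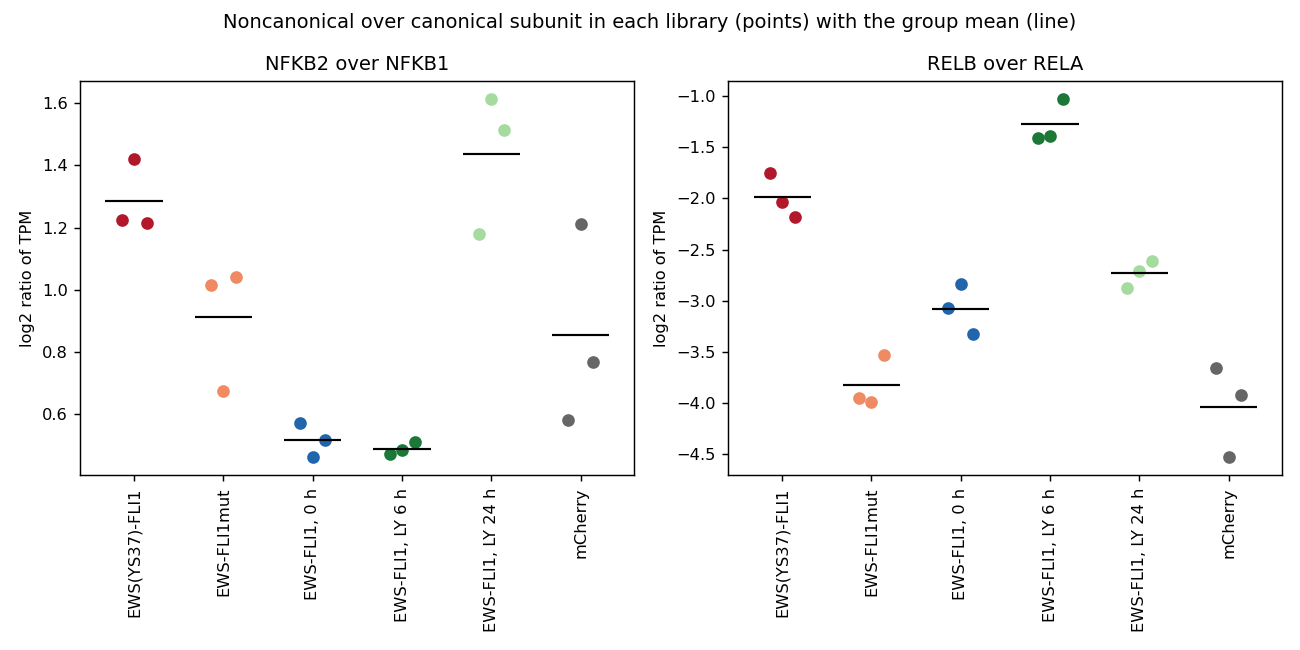
Log2 ratio of the TPM of NFKB2 to NFKB1 (left) and of RELB to RELA (right), with 1 point per library, the mean of a group as a line and the 6 groups along the horizontal axis. NFKB2 over NFKB1 is highest at 24 h of LY2835219 and in EWS(YS37)-FLI1 cells, and RELB over RELA is highest at 6 h.

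The other genes of the pathway were followed in 4 lists. Their counts stand beside the shares of all genes tested. Against mCherry cells these were 11.5% higher and 10.2% lower in EWS(YS37)-FLI1 cells, 3.53% higher and 3.62% lower in EWS-FLI1mut cells and 11.1% higher and 9.95% lower in EWS-FLI1 cells. Against untreated cells they were 31.6% higher and 33.3% lower at 6 h and 23.3% higher and 24.6% lower at 24 h. Of 12 genes of noncanonical signalling, 10 were tested. In EWS(YS37)-FLI1 cells against mCherry cells 6 were higher and 2 lower, or 1 lower with length offsets and without EWS(YS37)-FLI1 replicate 1 or 2 or mCherry replicate 3. BIRC3, a ubiquitin ligase of the complex that degrades the MAP3K14 kinase, had 18.1 ± 2.08 CPM in EWS(YS37)-FLI1 cells and 5.56 ± 1.06 CPM in mCherry cells (log2 fold change 1.71 ± 0.17, edgeR adjusted p = 1.06e-07). MAP3K14 itself rose by 0.88 ± 0.09 (edgeR adjusted p = 9.49e-08) and TRAF3, its adaptor for degradation, by 0.67 ± 0.08 (edgeR adjusted p = 1.12e-06). In EWS-FLI1mut cells 1 of the 10 was higher, MAP3K14 at 0.35 ± 0.09 (edgeR adjusted p = 0.016), a call lost with length offsets and on leaving out replicate 1 or 3 of EWS-FLI1mut or replicate 2 of mCherry. In EWS-FLI1 cells 5 were higher and none was called lower, with BIRC3 at 1.10 ± 0.18, TRAF3 at 0.42 ± 0.08 and CD40 at 0.27 ± 0.08. The TRAF3 and CD40 calls were lost with length offsets, and without mCherry replicate 1 the list had 3 genes called higher, CD40 no longer among them.

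At 6 h of LY2835219, 8 of the 10 noncanonical genes were higher and none lower than in untreated cells. BIRC3 had 107 ± 15.6 CPM at 6 h and 11.9 ± 3.23 CPM in untreated cells (3.17 ± 0.15, edgeR adjusted p = 1.27e-14). Its paralogue BIRC2 rose by 1.66 ± 0.07 (edgeR adjusted p = 5.10e-15), and LTB, a ligand of LTBR, by 2.54 ± 0.48 (edgeR adjusted p = 6.52e-05) to 3.90 ± 0.733 CPM. At 24 h, LTBR (0.70 ± 0.08) and TRAF3 (0.26 ± 0.08) were higher and TNFRSF12A (-0.34 ± 0.05) lower. The TRAF3 call at 24 h was lost without EWS-FLI1 replicate 3 (0.15).

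The 21 genes of canonical signalling were less uniform. In EWS(YS37)-FLI1 cells 6 were higher, or 3 without mCherry replicate 2 or 3, and 1 was lower than in mCherry cells. TAB3, which tethers the TAK1 kinase to ubiquitin chains, fell by 0.47 ± 0.08 (edgeR adjusted p = 6.23e-05), and TLR4 (0.42 ± 0.09) and IL1RAP (0.40 ± 0.11) rose, both calls lost with length offsets. In EWS-FLI1mut cells TLR4 rose by 0.74 ± 0.09 (edgeR adjusted p = 1.88e-05), and RIPK1 by 0.29 ± 0.07. The RIPK1 call was lost on leaving out replicate 1 of EWS-FLI1mut or replicate 2 or 3 of mCherry. In EWS-FLI1 cells 4 were higher, or 1 without EWS-FLI1 replicate 1 and 2 without mCherry replicate 1 or 3, and none was lower, or 1 without EWS-FLI1 replicate 3. Among the higher genes were IL1R1 (0.60 ± 0.18), IL1RAP (0.48 ± 0.11) and RIPK1 (0.23 ± 0.07). Both interleukin-1 receptor calls were lost with length offsets. Without EWS-FLI1 replicate 1 the calls of IL1R1 and RIPK1 were lost and IL1RAP was 0.32. The IL1R1 call was also lost without mCherry replicate 1, and the RIPK1 call without mCherry replicate 3. At 6 h 12 of the 21 were higher and 7 lower, beside 31.6% and 33.3% of all genes, so that the share called lower was that of all genes. The TNF receptor gene TNFRSF1A rose by 1.00 ± 0.07, and IL1R1 fell by 1.27 ± 0.18 and TLR3 by 1.03 ± 0.33, the last lost with length offsets and without 6 h replicate 2. At 24 h 8 were higher and 6 lower, beside 23.3% and 24.6% of all genes, with 3 lower under length offsets. RNF31, the catalytic subunit of the linear ubiquitin ligase, rose by 0.69 ± 0.10, and IRAK4 (0.68 ± 0.15) and MYD88 (1.12 ± 0.38) lost their calls with length offsets. MYD88 ranged from 0.68 without EWS-FLI1 replicate 1 to 1.97 without EWS-FLI1 replicate 3, and its call was also lost without EWS-FLI1 replicate 2 or 24 h replicate 2.

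Of 14 other IkB and feedback genes, 13 were tested. TRAF1, an adaptor known as an NF-kB target, had 6.60 ± 0.124 CPM in EWS(YS37)-FLI1 cells and 5.88 ± 2.79 CPM in EWS-FLI1 cells, against 1.93 ± 0.247 CPM in mCherry cells. It was called in both, at 1.77 ± 0.25 (edgeR adjusted p = 1.35e-05) and 1.61 ± 0.25 (edgeR adjusted p = 6.27e-05). In EWS(YS37)-FLI1 cells 8 of the 13 were higher and 1 lower, or 2 lower without mCherry replicate 3. The higher genes included the RNase gene ZC3H12A (0.75 ± 0.12) and IRAK2 (0.86 ± 0.30), whose call was lost with length offsets and without any one EWS(YS37)-FLI1 library or mCherry replicate 2 or 3. In EWS-FLI1 cells 3 were higher, or 1 without EWS-FLI1 replicate 1, and 1 was lower. CYLD (0.31 ± 0.09) and TAX1BP1 (-0.20 ± 0.07) lost their calls with length offsets, CYLD also without replicate 1 of either group, and TAX1BP1 without replicate 2 or 3 of either group. In EWS-FLI1mut cells 0 of the 13 were called by edgeR, and 1 had an unadjusted p under 0.05. DESeq2 and limma also called 0. At 6 h 8 of the 13 were higher and 2 lower, beside 31.6% and 33.3% of all genes. The 2 lower became 1 without EWS-FLI1 replicate 2 or 6 h replicate 1 or 3, and 0 with length offsets. TRAF1 reached 99.3 ± 10.2 CPM (4.07 ± 0.19, edgeR adjusted p = 8.97e-15), ZC3H12A rose by 2.51 ± 0.11 and CYLD, a deubiquitinase that restrains IKK, by 1.13 ± 0.08. At 24 h ZC3H12A was the 1 gene called higher (0.84 ± 0.11), with 2 called higher when EWS-FLI1 replicate 1 was left out, and 3 were lower, or 1 with length offsets, among them NKIRAS2 (-0.27 ± 0.07, lost with length offsets) and TAX1BP1 (-0.24 ± 0.07).

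Of 29 genes reported as NF-kB targets, 23 were tested. In EWS(YS37)-FLI1 cells 15 were higher than in mCherry cells and none lower, or 1 lower with length offsets. The chemokine gene CCL2 had 16.7 ± 3.44 CPM in EWS(YS37)-FLI1 cells and 2.47 ± 0.792 CPM in mCherry cells (2.76 ± 0.24, edgeR adjusted p = 9.24e-09). IL6 rose by 2.98 ± 0.54 (edgeR adjusted p = 0.000237) and CXCL3 by 1.97 ± 0.56, the last lost with length offsets. In EWS-FLI1mut cells 3 were higher, or 1 without EWS-FLI1mut replicate 3 or mCherry replicate 1, and 1 was lower, among them ICAM1 (2.19 ± 0.49, lost with length offsets), CSF2 (1.34 ± 0.37) and CCL2 (-1.20 ± 0.31). The CSF2 call was lost with length offsets and on leaving out replicate 2 or 3 of EWS-FLI1mut or replicate 1 or 2 of mCherry. The CCL2 call was lost on leaving out replicate 1 or 2 of EWS-FLI1mut or replicate 2 or 3 of mCherry. In EWS-FLI1 cells 10 were higher and none lower, led by the matrix protease gene MMP9 (60.1 ± 19.0 CPM in EWS-FLI1 cells and 12.5 ± 1.70 CPM in mCherry cells; 2.27 ± 0.24, edgeR adjusted p = 4.02e-07), CCL20 (1.96 ± 0.42, lost with length offsets) and CXCL8 (1.93 ± 0.33).

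At 6 h of LY2835219, 18 of the 23 targets were higher and none lower. The survival gene BCL2A1 had 16.1 ± 4.66 CPM at 6 h and 0.563 ± 0.250 CPM in untreated cells (4.83 ± 0.41, edgeR adjusted p = 3.13e-10). The cytokine genes CSF2 (3.10 ± 0.33) and CCL2 (2.93 ± 0.22) also rose. At 24 h 5 targets were higher and 8 lower, or 5 lower with length offsets, and their median was -0.40, beside 0.03 over all genes. CXCL8 fell by 2.34 ± 0.34 (edgeR adjusted p = 4.39e-06), CCL2 by 1.84 ± 0.27 (edgeR adjusted p = 5.40e-06) and CCL20 by 1.48 ± 0.40, the last lost with length offsets. Some targets were thus below the untreated level at a time when NFKB2 and NFKBIA were above it. RELB was above it too, by a call lost with length offsets and with limma on TPM.

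**Figure D5:**
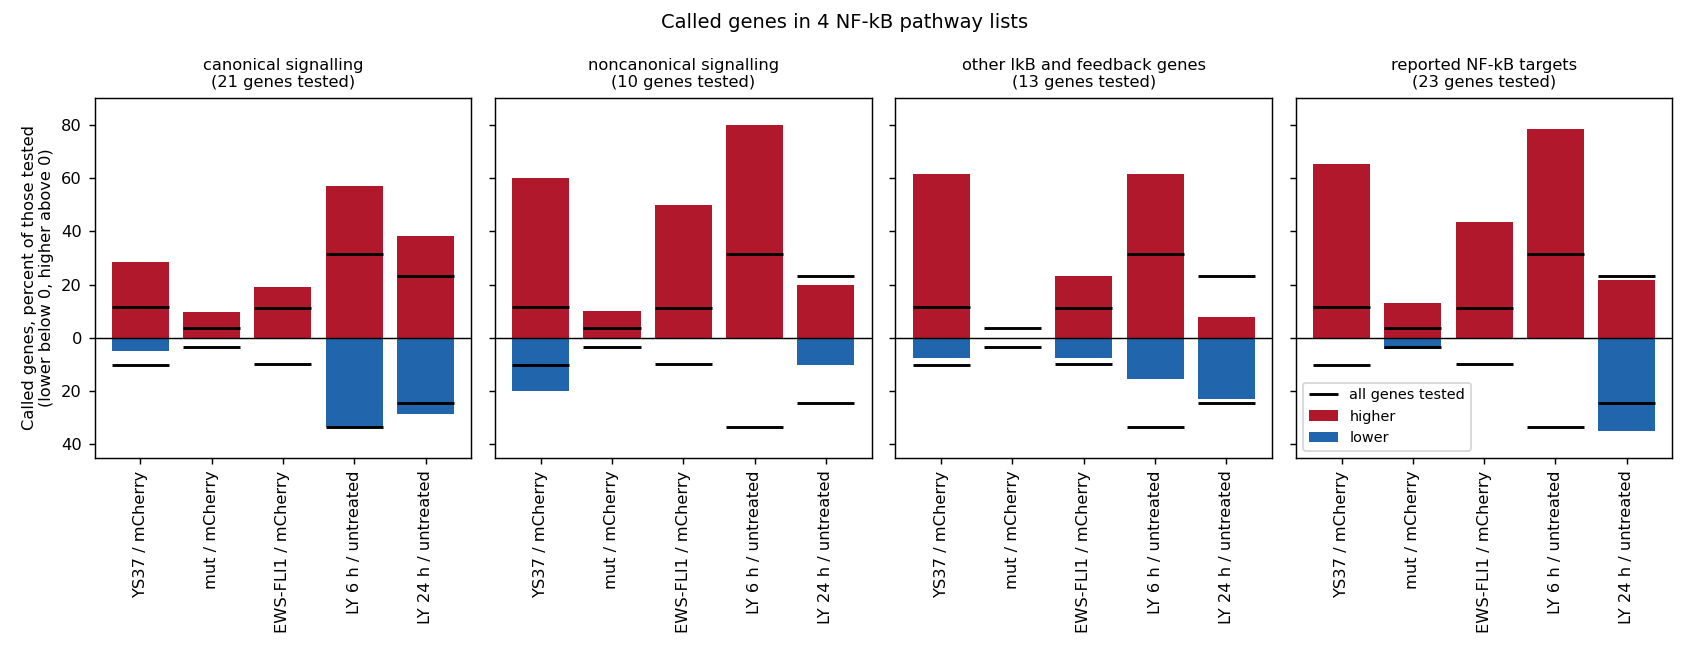
Percent of the tested genes of 4 pathway lists called higher (bars above 0) or lower (bars below 0) in 3 lines against mCherry cells and at 6 h and 24 h of LY2835219 against untreated EWS-FLI1 cells, with black marks for the percent of all genes tested. At 6 h, 18 of 23 reported targets and 8 of 10 noncanonical genes were higher and none lower.

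Transcript assignments added detail for a few members. NFKBIZ-204, a protein-coding transcript in GENCODE 29, held 1.17 ± 0.237% of NFKBIZ TPM in untreated EWS-FLI1 cells, 18.5 ± 4.67% at 6 h and 0.818 ± 0.709% at 24 h, and between 0% and 2.85% in each library of the other lines. The 3 libraries at 6 h lay between 13.9% and 23.2%, apart from all others. It was picked out after the values were seen. NFKBIE-203, annotated for nonsense-mediated decay, held 48.5 ± 10.4% of NFKBIE TPM in EWS(YS37)-FLI1 cells, 44.2 ± 5.60% in EWS-FLI1mut cells and 31.7 ± 20.0% in untreated EWS-FLI1 cells, against 55.2 ± 6.14% in mCherry cells, with overlap between them. With LY2835219 it held 54.3 ± 3.37% at 6 h and 53.0 ± 14.3% at 24 h. Each 6 h library, at 51.3% to 57.9%, lay above each untreated EWS-FLI1 library, at 9.92% to 49.4%, and the 24 h libraries overlapped with both. NFKB2-201, which starts at the NFKB2 promoter printed above, was the main NFKB2 transcript, with 55.7% to 70.8% of NFKB2 TPM on average over the 6 groups. No test was made on transcript shares, which depend on how kallisto divided reads between similar transcripts.

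The genes whose log2 CPM followed a member most closely over the 18 libraries were found among 15422 protein-coding genes. SDC4, a syndecan that also stands in the target list, was closest to both noncanonical members, with Pearson's r of 0.985 to RELB and 0.989 to NFKB2. MAP2K3, HK1 and CCDC86 were also among the nearest 5 genes of both; PEA15 completed the list for RELB and PLEKHB2 that for NFKB2. NFKB1 was followed by SRF (0.990), ANKRD11, BICD2, ETS1 and ADO. RELA was followed by ITPRIP (0.986), PDLIM4, ELK3 and SEMA7A. MAP2K3, a MAP kinase kinase, was nearest to NFKBIE (0.991) and TNFAIP3 (0.989). TRIM47 was nearest to NFKBIA (0.983), WDR43 to REL (0.989), NKX2-5 to NFKBIZ (0.931) and NCLN to BCL3 (0.863). The 3 libraries at 6 h weigh heavily in these values. Over the 15 other libraries r was 0.956 for SDC4 and RELB, 0.965 for SDC4 and NFKB2, 0.892 for SRF and NFKB1 and 0.833 for ITPRIP and RELA.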

How the data were processed

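Per the file headers, the authors deposited 1 kallisto transcript table per library, holding estimated counts without normalization, TPM and effective transcript length. The submitters' processing notes name kallisto 0.46, CASAVA and hg38. The transcript set and the use of strand are not given in the sources used here. Transcripts were joined to GENCODE 29 by identifier without version, and counts were added up by gene and rounded. Between 2.59% and 2.74% of the counts of a library had no match. Genes were fitted with edgeR 4.0.16 in R 4.3.3: TMM scaling, filterByExpr with the groups, and a quasi-likelihood model with 1 mean per group over 18 libraries (12 residual degrees of freedom). Benjamini-Hochberg adjustment covered every gene that passed the filter, and genes under 0.05 were called. An SE is the size of the log2 fold change divided by the root of F. The fit was also run on simulated gene counts with 200 changed genes, which hold no noise of transcript assignment. The outcome of that run is not reported here. Length offsets put average transcript lengths into the model. DESeq2 1.42.0 and limma 3.58.1 served as alternatives. All 10 members are named in each comparison, with up to 3 called genes per list that had at least 1 CPM, by size of log2 fold change, and, for likeness, the 5 nearest genes of RELB, NFKB2, NFKB1 and RELA, of which 1 is not reported here, and the nearest gene of the other members. SOD2 was counted once, by identifier. The members and lists were chosen with earlier results of these data known.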

Additional observations from a re-analysis of the deposited data

Results flagged for a closer look

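Effects under the same contrast differed between groups. Because each pair of effects shares its reference, the difference is the direct edgeR comparison given above, and the calls are the same ones. The effects of LY2835219 at 6 h and at 24 h differed in 9 of the 10 members, beside 62.9% of all genes tested. NFKB1 was higher than in untreated cells at 6 h and lower at 24 h, and the difference between the times was -2.44 on the log2 scale.

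The effects against the shared mCherry libraries differed in 6 members between EWS-FLI1mut and EWS-FLI1 cells, beside 16.3% of all genes tested. They differed in 7 members between EWS(YS37)-FLI1 and EWS-FLI1 cells, beside 31.1%, and in 9 between EWS(YS37)-FLI1 and EWS-FLI1mut cells, beside 27.2%.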

How the results depend on the processing

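Of 90 member fold changes in 9 comparisons, 66 were called, and 47 of these kept direction and call in every alternative. No called member value changed direction. With transcript length offsets, limma on log2(TPM + 1) and limma on log2(TPM + 0.1), fewer genes were called. Members called were 5, 4 and 4 in EWS-FLI1 against mCherry cells (8 as reported). Each of these counts includes NFKBIZ, which was not among the 8. Members called were 3, 2 and 2 in EWS-FLI1mut against EWS-FLI1 cells (6 as reported) and 3, 3 and 3 at 24 h against untreated cells (6 as reported). All genes called, in the same order of alternatives, were 1703, 1679 and 1544 in EWS-FLI1 against mCherry cells (3536 as reported), 374, 384 and 345 in EWS-FLI1mut against mCherry cells (1200) and 1968, 1907 and 1849 in EWS(YS37)-FLI1 against mCherry cells (3645). They were 1202, 1276 and 1122 in EWS-FLI1mut against EWS-FLI1 cells (2734), 3095, 2990 and 2901 in EWS(YS37)-FLI1 against EWS-FLI1 cells (5223), and 2571, 2735 and 2584 in EWS(YS37)-FLI1 against EWS-FLI1mut cells (4565). The cause was not tested.

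Values that changed sign were all uncalled. With length offsets, EWS-FLI1mut against mCherry cells gave NFKB2 -0.030, NFKBIE -0.073 and TNFAIP3 -0.26, and limma gave TNFAIP3 -0.14 and -0.15. BCL3 in EWS-FLI1mut against EWS-FLI1 cells was 0.022 with upper-quartile scaling, 0.039 with no scaling, and 0.034 and 0.035 with limma. NFKB1 in EWS(YS37)-FLI1 against EWS-FLI1 cells was -0.040 and -0.042 with limma. RELA in EWS(YS37)-FLI1 against EWS-FLI1mut cells was -0.0076 with no scaling, -0.069 with length offsets, and -0.20 and -0.20 with limma. At 24 h against untreated cells, RELA was -0.015 with length offsets and -0.090 and -0.091 with limma, and NFKBIE was 0.14, 0.066 and 0.070. NFKBIZ there was 0.027 with upper-quartile and 0.0022 with no scaling, and BCL3 was -0.037 and -0.039 with limma.

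Leaving out 1 library gave 667 to 1012 genes called in EWS-FLI1mut against mCherry cells. It turned the sign of uncalled values: REL -0.021 to 0.071 in EWS-FLI1 and NFKB1 -0.18 to 0.059 in EWS-FLI1mut against mCherry cells, NFKBIA -0.030 to 0.079 and BCL3 -0.11 to 0.094 in EWS-FLI1mut against EWS-FLI1 cells, RELA -0.051 to 0.018 in EWS(YS37)-FLI1 against EWS-FLI1 cells, and BCL3 -0.077 to 0.047 at 6 h. At 24 h against untreated cells the ranges were -0.033 to 0.088 for RELA, -0.074 to 0.0089 for NFKBIZ and -0.11 to 0.20 for BCL3, and BCL3 ranged from -0.065 to 0.23 at 24 h against 6 h. Same-numbered replicates had correlations of deviations, taken over all genes tested, from -0.0377 to 0.0621 over 27 pairs. A shift shared by same-numbered libraries in only some of the genes would not be seen this way. With the replicate block 4 members were called at 24 h (6 as reported), and the count of members called was as reported in the other 8 comparisons. Of 54 named values of list genes, 30 kept their call in every alternative and 0 changed direction. Libraries of similar depth and 3 per group limit what low genes such as TNFAIP3 and the cytokines can show.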
